A study of Saccharomyces cerevisiae with 16 samples.

Results

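The genes described here make, extend, trim or tie together the glucan and chitin of the yeast cell wall. They were listed by name and role as 34 enzymes and helpers of wall polymers, a choice made with earlier results of these data known, and each was read by exactly 1 probe set of the Affymetrix Yeast Genome 2.0 array. They were tested among 5498 probe sets that report 5449 genes. By role they comprised 1 glucan synthase, 5 glucanosyltransferases, 7 glucanases, 7 genes of chitin synthesis, 3 crosslinkers of chitin to glucan, 7 genes of β-1,6-glucan assembly, 1 mannosyltransferase and 3 genes of chitin breakdown or deacetylation.

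The wall of *Saccharomyces cerevisiae* is a mesh of β-1,3-glucan with a thin share of chitin, to which mannoproteins are joined through β-1,6-glucan. The glucan is drawn out at the plasma membrane by a synthase, and enzymes outside the membrane then lengthen, branch and cut the chains. Chitin is laid down as a ring and disc at the bud neck by separate synthases, and part of it is bound to glucan by crosslinking enzymes. Spores carry a wall of their own that also holds chitosan, and several genes of the families below are known mainly from that wall. Mss11 and Flo8 are transcription activators best known for the flocculin gene *FLO11*, and the arrays compare strains in which either was altered with their wild types, to follow the part of both in transcription.

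Data came from 16 arrays of 8 conditions with a pair of biological replicates each, of cells grown in 5 ml of synthetic medium with 2% glucose at 30° and harvested, by the labels, as they entered stationary phase. The Σ1278b background (*MATα* with *ura3-52* and *hisG* insertions that delete *TRP1*, *LEU2* and *HIS3*) gave a wild type with the empty multicopy plasmid YEpLac195 (wt), an *MSS11* deletion with the same empty plasmid (*mss11*), and the wild type with *MSS11* on that plasmid (2μ-*MSS11*). The S288c background was BY4742 (*MATα his3Δ1 leu2Δ0 lys2Δ0 ura3Δ0*, the last allele numbered differently from array to array in the labels), with YEpLac195 or with 2μ-*MSS11*. A further Σ1278b wild type (wt b) was set beside arrays titled *FLO8* overexpressed and *flo8* deleted. For these last arrays the plasmid field of the labels runs opposite to the titles, so they are called here by their titles. The plasmids carry *URA3*, each genotype is 1 strain, and by the labels the altered strains share the auxotrophies of their controls. The study's strain list, however, has *LEU2* as the marker that replaced *MSS11* in the *mss11* strain and *FLO8* in its *flo8* strain, so that deletion and marker cannot be told apart. *LEU2* was higher in *mss11* than in Σ1278b wt by 1.09 (SE 0.11, adjusted p = 0.00312), and the difference was -0.59 (SE 0.11, adjusted p = 0.0733) on the arrays titled *flo8* deleted.

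Values are the deposited intensities on a log2 scale, and a difference of 1 is a doubling. The targeted genes bore out the *MSS11* labels. *MSS11* read 7.5 and 8.34 in Σ1278b wt, 3.01 and 3.03 in *mss11*, 13.50 and 13.58 in Σ1278b with 2μ-*MSS11*, 8.87 and 8.87 in S288c wt, and 13.27 and 12.37 in S288c with 2μ-*MSS11*. *FLO8* read 11.59 and 11.63 in wt b and 15.71 and 12.90 on the overexpression arrays, but still 11.06 and 11.16 on those titled *flo8* deleted, where *FLO11* stood at 6.25 and 5.34 against 13.93 and 14.24 in wt b. The mean of *MSS11* in the deletion, 3.02, is used below as the level of a probe set without its transcript, although it was measured on these 2 arrays only. It is also the level of 1 probe set. Other genes listed as deleted read 2.02 to 2.04 (*LEU2* and *LYS2* in S288c) or 4.56 to 4.90 (*HIS3* on the wt b, *FLO8* and *flo8* arrays). Bounds and statements of absence below therefore hold only relative to 3.02.

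The S288c arrays differed from their labels and from each other in ways that touch the members. *LEU2* and *LYS2* lay between 2.02 and 2.04 on all 4, and both are listed as deleted. *HIS3*, listed as *his3Δ1*, read 14.78 and 14.79 in S288c wt and 14.72 and 13.54 with 2μ-*MSS11*. Whether that allele still gives a transcript was not checked, so these values need not depart from the label. On the Σ1278b arrays *HIS3* lay between 3.10 and 4.90, but *LEU2* read 13.31 to 14.58 although the labels list it as deleted. All 4 α-specific markers (*MF(ALPHA)1*, *MF(ALPHA)2*, *STE3*, *SAG1*) were high, but so were the 6 a-specific markers (*MFA1*, *MFA2*, *STE2*, *STE6*, *BAR1*, *AGA2*), whose summed level was 14.89 and 14.98 in S288c wt and 13.68 and 8.34 with 2μ-*MSS11*, against 6.84 to 8.01 on the Σ1278b arrays. No a-specific marker of the list was at the level of an absent transcript in S288c wt, while *MFA2* was under it in replicate 2 of 2μ-*MSS11* at 2.16. That pair of arrays also differed over the genome: the root mean square SD of a pair was 0.857 for S288c with 2μ-*MSS11* and 0.0910 to 0.290 for the other 7 conditions. Among 5 G1/S markers the summed level was 9.61 and 13.62 on these replicates against 10.88 and 10.85 in S288c wt, and among 5 G2/M markers it was 10.99 and 12.78 against 12.64 and 12.66. Among 5 stationary phase markers it was 16.20 and 14.88 against 16.03 and 15.89. A sum follows the brightest genes, and the median of these 5 markers went the other way in replicate 2. It was 12.96 and 11.23 with 2μ-*MSS11* against 10.10 and 10.15 in S288c wt. The Σ1278b arrays were not even in these markers either. The median of the 5 stationary phase markers was 7.61 and 10.87 on the replicates of Σ1278b wt. On the *FLO8* overexpression arrays 1 of the 5 was called higher, against 0.0546% of all probe sets, with a median change of 1.84. The part of these differences in the results below was not tested, and bulk RNA cannot tell fewer cells of a kind from less transcript per cell.

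By their lowest intensity, 3.36 to 3.37, 3.55 to 3.56 and 3.11 to 3.12, the arrays fell into 3 sets, which were taken here as normalized apart although no label says so. The arrays of wt b, *FLO8* and *flo8* had a median of 11.53 to 11.56, against 10.17 to 10.38 for the others. The gap between the 3′ and 5′ probes of the control transcript *SPT15* was 1.07 to 1.30 there and 1.94 to 2.34 elsewhere. Each altered strain was therefore compared with the wild type of its own set. Set and strain cannot be told apart in the contrast of S288c wt with Σ1278b wt.

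Of the members, 2 stayed at or under the level of an absent transcript in all 8 conditions. These were *GAS4*, a spore wall glucanosyltransferase, and *CDA2*, a chitin deacetylase of the spore wall. *CRR1* and *CDA1* were there in 6 conditions and *SPR1* in 5. The other 29 were above it on every array. Some members were steady in Σ1278b. *EXG1*, the main secreted exo-β-1,3-glucanase, spanned 14.07 to 14.14 over the 6 Σ1278b arrays of the first set, and *BGL2*, a major wall glucan-modifying enzyme, 14.44 to 14.60.

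**Figure D1:**
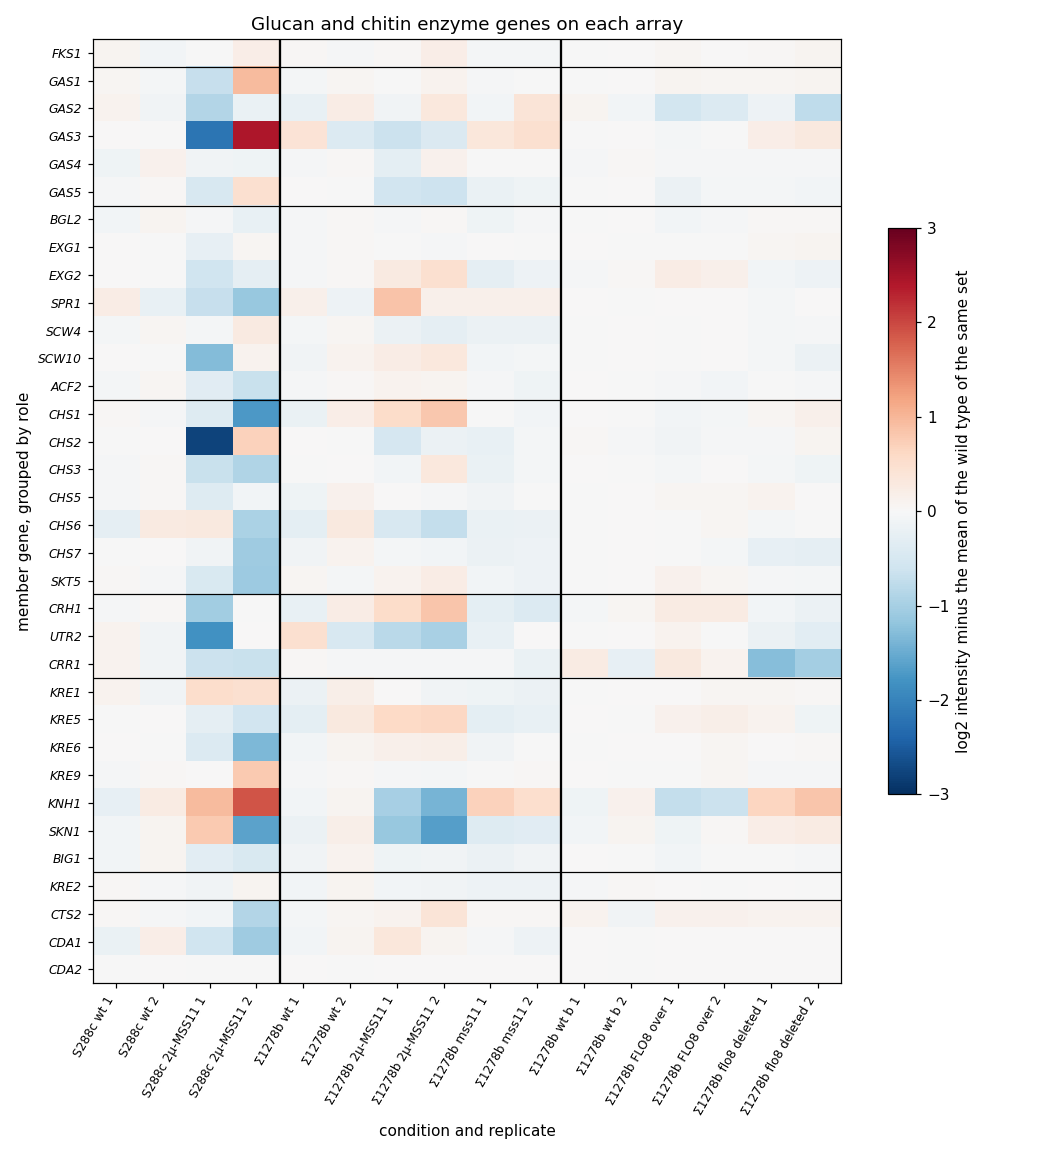
Each cell is the log2 intensity of a member gene (rows, by role) on an array (columns) minus the mean of the wild type of the same set, from blue (lower) to red (higher). Thick lines part the 3 sets. The replicates of S288c with 2μ-*MSS11* differ most from each other, and *KNH1* lies off the wild type in each altered condition.

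With 2μ-*MSS11* in S288c, 11 of the 34 members (32.4%) changed at an adjusted p under 0.05, against 16.9% of all probe sets tested. Of these, 2 rose and 9 were lower, where 7.26% of all probe sets were called higher and 9.6% lower. Of the 9, *CRR1* had both means at or under the level of an absent transcript. The median change was -0.42 for the members and -0.01 for all probe sets, and 8 of the 34 lay above 0. In Σ1278b the same plasmid changed 1 member (2.94%, background 5.22%), and the median change was -0.01. A fall was called for 4.17% of all probe sets there and a rise for 1.05%. Deletion of *MSS11* changed 0 members (background 0.127%, 0.0364% higher and 0.0909% lower; 0 members and 152 probe sets in all had an unadjusted p under 0.05 by limma, and 0 members passed by any other fit against the same control). The *FLO8* overexpression arrays changed 0 members (background 0.0546%; 1 member and 80 probe sets at an unadjusted p under 0.05), and 1 passed when each condition had a variance of its own. The *flo8* deletion arrays changed 1 (2.94%, background 0.4%, with 0.273% lower). The arrays of the altered strain and of its wild type did not overlap for 18 members in S288c with 2μ-*MSS11* (52.9%, background 47.5%), 23 in Σ1278b with 2μ-*MSS11* (67.6%, background 61.7%), 15 in *mss11* (44.1%, background 35.7%), 17 for *FLO8* (50.0%, background 51.3%) and 27 for *flo8* (79.4%, background 65.6%).

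The S288c calls lean on the choice of error. The test takes 1 spread for all 16 arrays, and these calls used a condition whose replicates lie far apart. That pair also widened the error of the other comparisons. *GAS3* and *CHS2* had an SE of 1.08 and 0.80 in each comparison of an altered strain, although their SDs in wt b were 0.02 and 0.04. For such genes a failure to pass says little. With a variance for each condition 0 of the 34 members and 22 of all probe sets passed in S288c with 2μ-*MSS11*. With the S288c arrays alone 0 of either passed. Leaving out 1 array at a time gave 5 members without wt replicate 1, 2 without wt replicate 2, 24 without 2μ-*MSS11* replicate 1 and 20 without its replicate 2.

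The β-1,6-glucan genes held the widest movements. *KNH1* (YDL049C), which encodes a homologue of Kre9 needed for β-1,6-glucan assembly, lay apart from its wild type on both arrays of every altered strain. It read 9.23 and 9.37 in Σ1278b wt, 10.00 and 9.80 in *mss11* and 8.30 and 7.92 in Σ1278b with 2μ-*MSS11*. In the S288c set it read 5.81 and 6.32 in S288c wt and 7.0 and 7.95 in S288c with 2μ-*MSS11*. In the third set it read 10.14 and 10.38 in wt b, 9.55 and 9.61 in the *FLO8* overexpression pair and 10.90 and 11.10 in the *flo8* deletion pair. In each of these 5 comparisons the replicates of the altered strain lay wholly on the same side of their wild type, as did those of 35.7% to 65.6% of all probe sets. With 2μ-*MSS11* it fell in Σ1278b, by a log2 difference of -1.19 (SE 0.28, adjusted p = 0.0431) in limma with Benjamini-Hochberg adjustment. It rose with the same plasmid in S288c, by 1.41 (SE 0.28, adjusted p = 0.0113). The differences that did not pass were 0.60 (SE 0.28, adjusted p = 1.0) in *mss11*, -0.68 (SE 0.28, adjusted p = 1) in the *FLO8* overexpression pair and 0.74 (SE 0.28, adjusted p = 0.769) in the *flo8* deletion pair. By the titles of the Σ1278b arrays, then, *KNH1* stood lower in both overexpression conditions and higher in both deletion conditions. Only the fall with 2μ-*MSS11* passed, and *FLO8* was still read on the arrays titled *flo8* deleted. Such a run was not particular to *KNH1*. *EXG2*, *SKT5* and *ACF2* also lay apart from wild type in all 5 comparisons, and *EXG2* and *SKT5* lay on the opposite side to *KNH1* in each. When each condition had its own variance the *FLO8* and *flo8* differences passed (adjusted p = 0.00911 and 0.00483), whereas the fall in Σ1278b was lost when any 1 of its 4 arrays was left out (adjusted p 0.0796 to 0.298) and after median centring (0.0511) or quantile normalization (0.117). Among the wild types *KNH1* was lower in S288c, with a log2 difference of -3.24 (SE 0.28, adjusted p = 1.36e-05) that was the lowest of the 34 members.

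Its homologue *KRE9* (YJL174W) was steady in Σ1278b, at 12.85 and 12.94 in Σ1278b wt, 12.88 and 12.93 in *mss11* and 12.86 and 12.84 in Σ1278b with 2μ-*MSS11*. The S288c values were 11.88 and 11.96 in S288c wt and 11.92 and 12.70 in S288c with 2μ-*MSS11*, where replicate 2 alone stood above wild type and the difference was 0.39 (SE 0.19, adjusted p = 0.161). In the third set *KRE9* read 14.23 and 14.21 in wt b, 14.20 and 14.28 in the *FLO8* overexpression pair and 14.18 and 14.17 in the *flo8* deletion pair. S288c wt was below Σ1278b wt, as for *KNH1*, with a log2 difference of -0.98 (SE 0.19, adjusted p = 0.00176).

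*KRE6* and *SKN1* encode a related pair of glucan hydrolase-like proteins of the secretory route, both with a part in β-1,6-glucan assembly. *KRE6* (YPR159W) fell with 2μ-*MSS11* in S288c, with a log2 difference of -0.88 (SE 0.23, adjusted p = 0.03), from 14.41 and 14.38 to 13.98 and 13.04. Both overexpression arrays were below both wild-type arrays, and replicate 2 was the lower of the pair. Without either wild-type array the call was lost (adjusted p = 0.118 and 0.127). In Σ1278b *KRE6* hardly varied, at 13.36 and 13.53 in Σ1278b wt, 13.33 and 13.44 in *mss11* and 13.59 and 13.62 in Σ1278b with 2μ-*MSS11*. It was as even in the third set, at 14.22 and 14.24 in wt b, 14.24 and 14.29 in the *FLO8* overexpression pair and 14.24 and 14.27 in the *flo8* deletion pair.

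*SKN1* (YGR143W) behaved otherwise. It read 9.30 and 9.64 in Σ1278b wt, 9.08 and 9.13 in *mss11* and 8.34 and 7.81 in Σ1278b with 2μ-*MSS11*, so that both overexpression arrays lay below both wild-type arrays, with a difference of -1.39 (SE 0.57, adjusted p = 0.195). The call appeared when each condition had its own variance (adjusted p = 0.0228) and with the first set's arrays alone (0.0499). In S288c it read 10.35 and 10.52 in S288c wt and 11.22 and 8.83 in S288c with 2μ-*MSS11*, with 1 replicate above and 1 below the wild type. In the third set *SKN1* read 10.42 and 10.60 in wt b, 10.38 and 10.55 in the *FLO8* overexpression pair and 10.70 and 10.77 in the *flo8* deletion pair. It passed in 0 of the 8 comparisons, and at an unadjusted p under 0.05 in 1 of them.

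**Figure D2:**
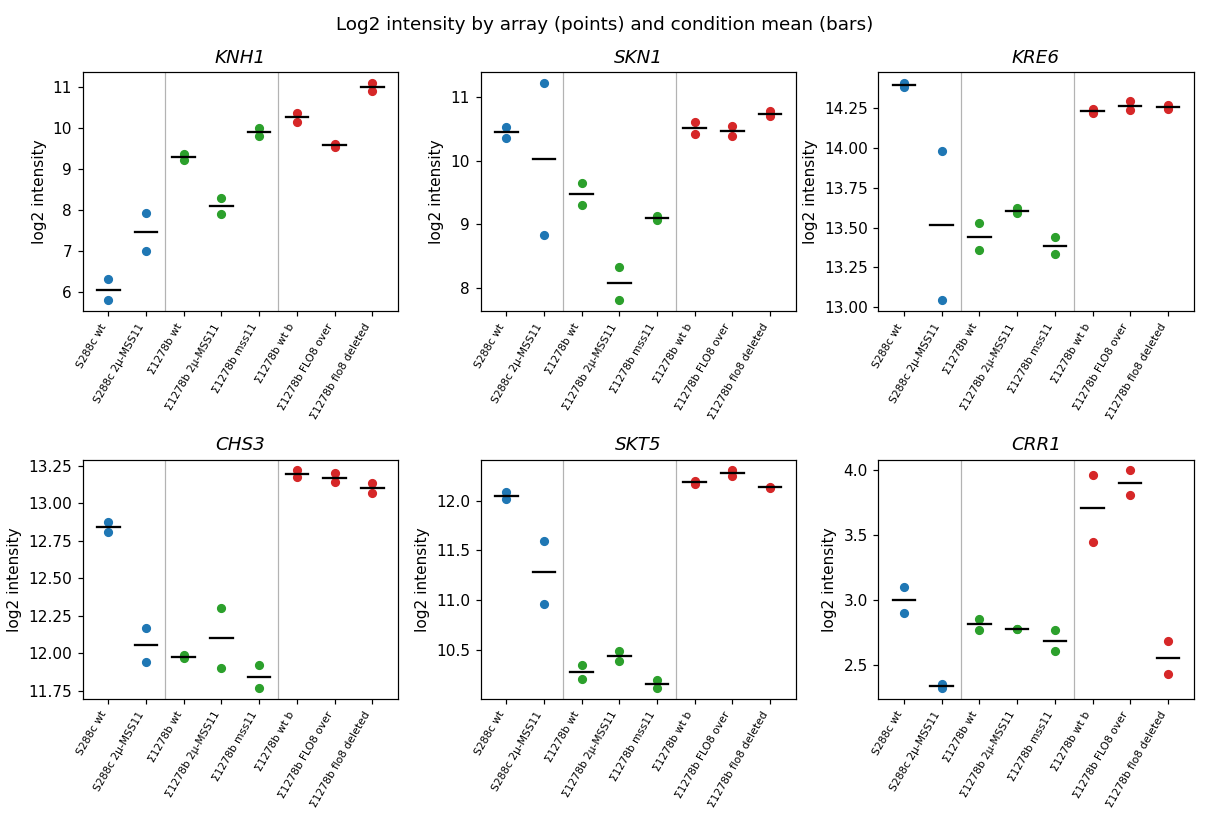
Log2 intensity (vertical axis, with its own range in each panel) of *KNH1*, *SKN1*, *KRE6*, *CHS3*, *SKT5* and *CRR1* on every array, by condition. Points are arrays, bars are condition means, and colours mark the 3 sets. *KNH1* is lower with 2μ-*MSS11* in Σ1278b and higher with it in S288c, while *CHS3* and *SKT5* are lower with it in S288c.

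*KRE1* (YNL322C), a wall protein of β-1,6-glucan assembly and receptor of the K1 killer toxin, was the other member that rose in S288c, by 0.50 (SE 0.12, adjusted p = 0.0195). It read 12.04 and 11.81 in S288c wt and 12.46 and 12.41 in S288c with 2μ-*MSS11*, with no overlap. Without wt replicate 2 the adjusted p was 0.137. The Σ1278b values were 12.49 and 12.83 in Σ1278b wt, 12.54 and 12.48 in *mss11* and 12.68 and 12.57 in Σ1278b with 2μ-*MSS11*, and those of the third set were 13.66 and 13.69 in wt b, 13.69 and 13.72 in the *FLO8* overexpression pair and 13.74 and 13.71 in the *flo8* deletion pair. *KRE1* was lower in S288c wt than in Σ1278b wt, with a log2 difference of -0.73 (SE 0.12, adjusted p = 0.000525).

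*BIG1* (YHR101C), an endoplasmic reticulum membrane protein needed for normal β-1,6-glucan, fell in S288c, with a log2 difference of -0.39 (SE 0.09, adjusted p = 0.0206), from 9.60 and 9.76 to 9.36 and 9.22. In the first set it read 9.40 and 9.59 in Σ1278b wt, 9.33 and 9.39 in *mss11* and 9.36 and 9.38 in Σ1278b with 2μ-*MSS11*, and in the third 10.85 and 10.84 in wt b, 10.77 and 10.84 in the *FLO8* overexpression pair and 10.83 and 10.81 in the *flo8* deletion pair. *KRE5* (YOR336W), a glucosyltransferase-like protein of the endoplasmic reticulum, read 10.90 and 11.48 in Σ1278b wt, 10.91 and 10.97 in *mss11* and 11.80 and 11.81 in Σ1278b with 2μ-*MSS11*. It read 11.81 and 11.83 in S288c wt and 11.54 and 11.24 in S288c with 2μ-*MSS11*, and 11.76 and 11.72 in wt b, 11.86 and 11.92 in the *FLO8* overexpression pair and 11.84 and 11.61 in the *flo8* deletion pair. Its change was -0.43 (SE 0.17, adjusted p = 0.103) in S288c and 0.61 (SE 0.17, adjusted p = 0.0706) in Σ1278b. Neither passed, but the difference between them did, at -1.04 (SE 0.24, adjusted p = 0.0219).

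Of 7 genes of chitin synthesis, 2 fell with 2μ-*MSS11* in S288c and 0 rose, where 9.6% of all probe sets were called lower and 7.26% higher. Their median change was -0.77, against -0.42 for the 34 members and -0.01 for all probe sets. *CHS3* (YBR023C), the catalytic subunit of the synthase that makes most wall chitin, fell with a log2 difference of -0.79 (SE 0.13, adjusted p = 0.00444). It read 12.80 and 12.88 in S288c wt and 12.17 and 11.94 in S288c with 2μ-*MSS11*, and the groups did not overlap. Its call was kept under removal of each S288c array in turn (the highest adjusted p was 0.0377), although not when each condition had its own variance (0.830) or with the S288c arrays alone (0.649). *SKT5* (YBL061C), also called *CHS4*, which activates Chs3, fell with a log2 difference of -0.77 (SE 0.16, adjusted p = 0.014), from 12.09 and 12.02 to 11.60 and 10.96. Without either wild-type array its adjusted p was 0.0756 or 0.0687.

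In Σ1278b neither of the pair passed. *CHS3* read 11.97 and 11.99 in Σ1278b wt, 11.77 and 11.92 in *mss11* and 11.90 and 12.30 in Σ1278b with 2μ-*MSS11*, a difference of 0.12 (SE 0.13, adjusted p = 0.662) with 2μ-*MSS11*. *SKT5* read 10.34 and 10.20 in Σ1278b wt, 10.19 and 10.11 in *mss11* and 10.39 and 10.49 in Σ1278b with 2μ-*MSS11*, a difference of 0.17 (SE 0.16, adjusted p = 0.642). The 95% intervals of these differences were -0.16 to 0.41 and -0.20 to 0.53. In the third set *CHS3* read 13.22 and 13.18 in wt b, 13.14 and 13.20 in the *FLO8* overexpression pair and 13.14 and 13.07 in the *flo8* deletion pair. *SKT5* there read 12.17 and 12.20 in wt b, 12.30 and 12.25 in the *FLO8* overexpression pair and 12.14 and 12.13 in the *flo8* deletion pair.

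*CHS1* (YNL192W), a synthase that repairs the wall at cell separation, had the lowest mean difference of the 34 in S288c, -1.06 (SE 0.33, adjusted p = 0.0541), which did not pass. Its replicates read 13.24 and 11.92 against 13.67 and 13.60. Replicate 2, which lay lowest, is also the array with few a-specific transcripts, and a link between the 2 was not tested. In Σ1278b *CHS1* read 11.32 and 11.73 in Σ1278b wt, 11.52 and 11.45 in *mss11* and 12.08 and 12.33 in Σ1278b with 2μ-*MSS11*, a difference of 0.68 (SE 0.33, adjusted p = 0.268). In the third set it read 12.51 and 12.48 in wt b, 12.42 and 12.43 in the *FLO8* overexpression pair and 12.56 and 12.64 in the *flo8* deletion pair.

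The exomer genes *CHS5* and *CHS6* carry Chs3 to the cell surface, and Chs7 is needed for it to leave the endoplasmic reticulum. *CHS5* (YLR330W) read 10.65 and 10.89 in Σ1278b wt, 10.67 and 10.76 in *mss11* and 10.78 and 10.75 in Σ1278b with 2μ-*MSS11*. It read 11.19 and 11.26 in S288c wt and 10.83 and 11.14 in S288c with 2μ-*MSS11*, and 11.81 and 11.83 in wt b, 11.88 and 11.89 in the *FLO8* overexpression pair and 11.92 and 11.84 in the *flo8* deletion pair. The change in S288c was -0.24 (SE 0.11, adjusted p = 0.146). *CHS6* (YJL099W) read 8.10 and 8.68 in Σ1278b wt, 8.19 and 8.21 in *mss11* and 7.90 and 7.66 in Σ1278b with 2μ-*MSS11*, 7.83 and 8.39 in S288c wt and 8.39 and 7.16 in S288c with 2μ-*MSS11*, and 9.98 and 10.02 in wt b, 9.98 and 10.05 in the *FLO8* overexpression pair and 9.95 and 9.98 in the *flo8* deletion pair. Its S288c replicates fell on either side of wild type. *CHS7* (YHR142W) read 11.70 and 11.91 in Σ1278b wt, 11.62 and 11.66 in *mss11* and 11.75 and 11.72 in Σ1278b with 2μ-*MSS11*. In S288c it read 12.60 and 12.64 in S288c wt and 12.51 and 11.57 in S288c with 2μ-*MSS11*, a difference of -0.59 (SE 0.23, adjusted p = 0.101) with replicate 2 as the lower array. The third set gave 12.92 and 12.93 in wt b, 12.92 and 12.86 in the *FLO8* overexpression pair and 12.67 and 12.65 in the *flo8* deletion pair. *CHS2*, the synthase of the primary septum, passed in 0 of 8 comparisons and had replicates of 7.20 and 10.67 in S288c with 2μ-*MSS11* against 9.97 and 9.98 in wt.

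Between the wild types 5 of 7 genes of chitin synthesis were called higher in S288c than in Σ1278b and 0 lower, where 31.8% of all probe sets were called higher and 28.1% lower. The gaps were 2.11 (SE 0.33, adjusted p = 0.000486) for *CHS1*, 1.78 (SE 0.16, adjusted p = 2.00e-05) for *SKT5*, 0.86 (SE 0.13, adjusted p = 0.000354) for *CHS3*, 0.82 (SE 0.23, adjusted p = 0.0119) for *CHS7* and 0.45 (SE 0.11, adjusted p = 0.00624) for *CHS5*. *CHS2* (-0.73, SE 0.80, adjusted p = 0.453) and *CHS6* (-0.275, SE 0.35, adjusted p = 0.515) lay the other way and did not pass. Set and strain cannot be told apart in any of these differences. The wild types also differed in growth markers. Of 5 stationary phase markers 3 were called higher in S288c wt (background 31.8%) and 0 lower, with a median difference of 2.95. Of 5 G1/S markers 2 were called lower (background 28.1%) and 0 higher, with a median of -2.38. The part of growth state in the gaps was not tested. Over all 34 members 20 differed (58.8%, background 59.8%), 13 higher (background 31.8%) and 7 lower (background 28.1%). That share was close to the background.

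**Figure D3:**
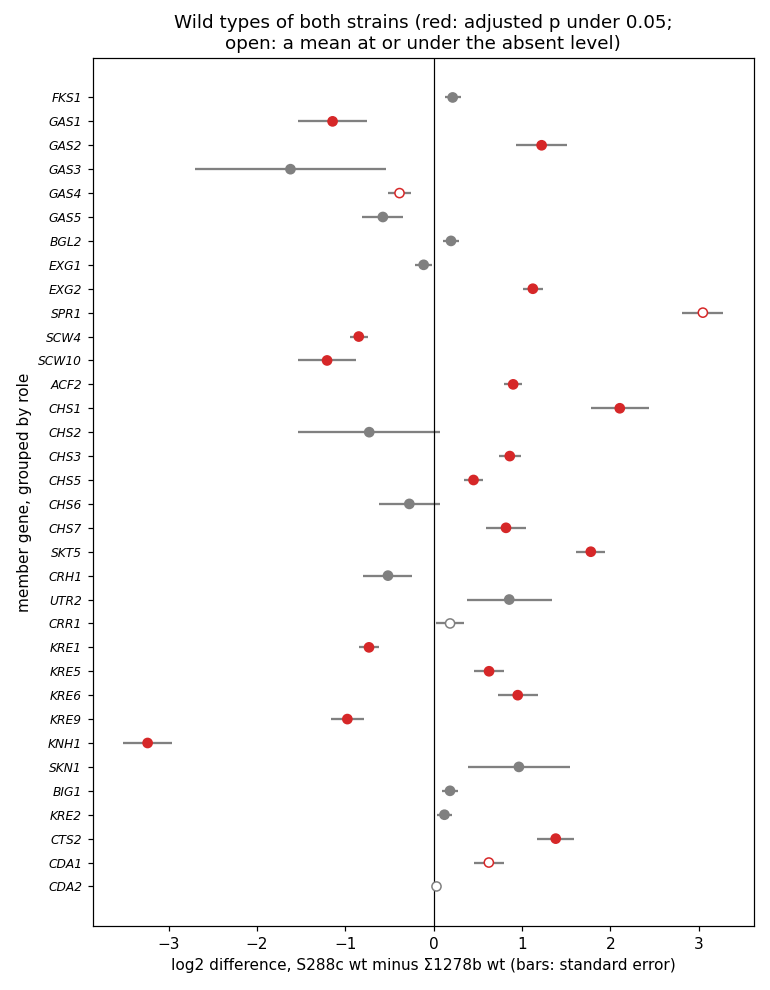
Log2 difference of each member between wild types (S288c wt minus Σ1278b wt, horizontal axis), by role, with the standard error as bars. Red points passed at an adjusted p under 0.05. Open points had a mean at or under the level of an absent transcript in either strain, and their place has no exact size. Among the filled points *CHS1* lies furthest to the S288c side and *KNH1* furthest to the Σ1278b side.

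Among the glucanases 3 of 7 fell with 2μ-*MSS11* in S288c and 0 rose, where 9.6% of all probe sets were called lower and 7.26% higher. *EXG2* (YDR261C), a membrane-anchored exo-β-1,3-glucanase, read 11.41 and 11.38 in S288c wt and 10.80 and 11.13 in S288c with 2μ-*MSS11* (difference -0.43 (SE 0.11, adjusted p = 0.0325)). *ACF2* (YLR144C), an endo-β-1,3-glucanase of the cell interior, read 10.91 and 11.01 in S288c wt and 10.63 and 10.29 in S288c with 2μ-*MSS11* (difference -0.50 (SE 0.10, adjusted p = 0.0126)). *SPR1* (YOR190W), a spore wall exo-glucanase, read 6.04 and 5.60 in S288c wt and 5.13 and 4.68 in S288c with 2μ-*MSS11* (difference -0.92 (SE 0.23, adjusted p = 0.0285)). For each of the 3 both overexpression arrays were below both wild-type arrays. Without wt replicate 2 the adjusted p was 0.126, 0.0877 and 0.0524.

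The same genes in Σ1278b gave other values. *EXG2* read 10.23 and 10.31 in Σ1278b wt, 10.00 and 10.13 in *mss11* and 10.54 and 10.74 in Σ1278b with 2μ-*MSS11*, the *ACF2* arrays gave 10.03 and 10.09 in Σ1278b wt, 10.02 and 9.94 in *mss11* and 10.17 and 10.13 in Σ1278b with 2μ-*MSS11*, and *SPR1* read 2.92 and 2.63 in Σ1278b wt, 2.93 and 2.92 in *mss11* and 3.64 and 2.93 in Σ1278b with 2μ-*MSS11*. The *EXG2* difference with 2μ-*MSS11* was 0.37 (SE 0.11, adjusted p = 0.0963) there, with no overlap. In the third set *EXG2* read 12.01 and 12.08 in wt b, 12.26 and 12.20 in the *FLO8* overexpression pair and 11.95 and 11.89 in the *flo8* deletion pair. *ACF2* read 11.26 and 11.26 in wt b, 11.23 and 11.16 in the *FLO8* overexpression pair and 11.25 and 11.23 in the *flo8* deletion pair. *SPR1* read 2.21 and 2.21 in wt b, 2.22 and 2.21 in the *FLO8* overexpression pair and 2.17 and 2.22 in the *flo8* deletion pair, all under the level of an absent transcript. Between wild types *SPR1* was higher in S288c by at least 2.8 on the log2 scale (adjusted p = 6.21e-06), a bound set from the level of an absent transcript, since both Σ1278b wt arrays lay under it. *EXG2* was higher by 1.12 (SE 0.11, adjusted p = 3.74e-05) and *ACF2* by 0.90 (SE 0.10, adjusted p = 7.61e-05). Sporulation markers were also higher in S288c wt, with 6 of 8 called higher against 31.8% of all probe sets. Among them *SPS1* and *SMK1* stayed at 3.76 to 4.17. The part of these markers was not tested.

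*BGL2* (YGR282C) read 14.51 and 14.60 in Σ1278b wt, 14.44 and 14.52 in *mss11* and 14.52 and 14.58 in Σ1278b with 2μ-*MSS11*, 14.67 and 14.83 in S288c wt and 14.72 and 14.53 in S288c with 2μ-*MSS11*, and 15.16 and 15.20 in wt b, 15.10 and 15.16 in the *FLO8* overexpression pair and 15.21 and 15.21 in the *flo8* deletion pair. *EXG1* (YLR300W) read 14.07 and 14.14 in Σ1278b wt, 14.12 and 14.10 in *mss11* and 14.09 and 14.07 in Σ1278b with 2μ-*MSS11*, 13.99 and 13.99 in S288c wt and 13.74 and 14.06 in S288c with 2μ-*MSS11*, and 14.92 and 14.92 in wt b, 14.91 and 14.90 in the *FLO8* overexpression pair and 14.97 and 14.99 in the *flo8* deletion pair. Neither passed in a comparison of an altered strain with its wild type or between strains. *SCW4* and *SCW10* encode a pair of wall proteins similar to glucanases. *SCW4* (YGR279C) read 14.83 and 14.93 in Σ1278b wt, 14.71 and 14.70 in *mss11* and 14.71 and 14.62 in Σ1278b with 2μ-*MSS11*, 13.98 and 14.08 in S288c wt and 13.96 and 14.29 in S288c with 2μ-*MSS11*, and 15.41 and 15.44 in wt b, 15.42 and 15.44 in the *FLO8* overexpression pair and 15.36 and 15.40 in the *flo8* deletion pair. *SCW10* (YMR305C) read 14.44 and 14.64 in Σ1278b wt, 14.45 and 14.49 in *mss11* and 14.76 and 14.85 in Σ1278b with 2μ-*MSS11*, 13.33 and 13.33 in S288c wt and 12.04 and 13.43 in S288c with 2μ-*MSS11*, and 15.15 and 15.18 in wt b, 15.14 and 15.17 in the *FLO8* overexpression pair and 15.10 and 14.98 in the *flo8* deletion pair. Both were lower in S288c wt than in Σ1278b wt, with log2 differences of -0.85 (SE 0.10, adjusted p = 0.000103) and -1.21 (SE 0.33, adjusted p = 0.0104).

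*FKS1* (YLR342W), the catalytic subunit of the main β-1,3-glucan synthase, was among the steadiest members. It read 13.71 and 13.66 in Σ1278b wt, 13.62 and 13.63 in *mss11* and 13.73 and 13.89 in Σ1278b with 2μ-*MSS11*, 13.97 and 13.83 in S288c wt and 13.89 and 14.10 in S288c with 2μ-*MSS11*, and 14.65 and 14.68 in wt b, 14.72 and 14.68 in the *FLO8* overexpression pair and 14.70 and 14.74 in the *flo8* deletion pair. Its change with 2μ-*MSS11* was 0.09 (SE 0.09, adjusted p = 0.482) in S288c and 0.12 (SE 0.09, adjusted p = 0.494) in Σ1278b, with 95% intervals of -0.11 to 0.29 and -0.08 to 0.33.

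The Gas glucanosyltransferases lengthen β-1,3-glucan chains, and 0 of 5 passed in any comparison of an altered strain with its wild type. *GAS1* (YMR307W) read 14.61 and 14.74 in Σ1278b wt, 14.64 and 14.67 in *mss11* and 14.66 and 14.79 in Σ1278b with 2μ-*MSS11*, and 15.19 and 15.23 in wt b, 15.29 and 15.27 in the *FLO8* overexpression pair and 15.27 and 15.30 in the *flo8* deletion pair. In S288c it read 13.59 and 13.47 in S288c wt and 12.83 and 14.49 in S288c with 2μ-*MSS11*, with 1 replicate on each side of wild type. *GAS5* (YOL030W) read 12.60 and 12.56 in Σ1278b wt, 12.37 and 12.46 in *mss11* and 12.00 and 11.96 in Σ1278b with 2μ-*MSS11*, 11.97 and 12.05 in S288c wt and 11.53 and 12.49 in S288c with 2μ-*MSS11*, and 13.90 and 13.93 in wt b, 13.75 and 13.86 in the *FLO8* overexpression pair and 13.86 and 13.83 in the *flo8* deletion pair. The Σ1278b arrays with 2μ-*MSS11* were the lowest of their set for *GAS5*, at -0.60 (SE 0.23, adjusted p = 0.169). *GAS2* (YLR343W), which with *GAS4* acts in the spore wall, read 7.17 and 7.62 in Σ1278b wt, 7.31 and 7.78 in *mss11* and 7.29 and 7.72 in Σ1278b with 2μ-*MSS11*. It read 8.73 and 8.50 in S288c wt and 7.73 and 8.42 in S288c with 2μ-*MSS11*, and 7.47 and 7.33 in wt b, 6.85 and 6.99 in the *FLO8* overexpression pair and 7.25 and 6.64 in the *flo8* deletion pair. *GAS4* (YOL132W) read 2.97 and 3.07 in Σ1278b wt, 3.02 and 3.0 in *mss11* and 2.73 and 3.15 in Σ1278b with 2μ-*MSS11*, 2.50 and 2.77 in S288c wt and 2.53 and 2.51 in S288c with 2μ-*MSS11*, and 1.98 and 2.04 in wt b, 1.98 and 1.98 in the *FLO8* overexpression pair and 1.98 and 1.98 in the *flo8* deletion pair, none above 3.15. Between wild types *GAS2* was higher in S288c by 1.22 (SE 0.29, adjusted p = 0.00528), *GAS1* differed by -1.14 (SE 0.39, adjusted p = 0.0277), and *GAS4* was called (adjusted p = 0.0273) with both means at or under the level of an absent transcript, so no size is given.

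Of the crosslinkers, which tie chitin to glucan, only *CRR1* passed in an altered strain. *CRR1* (YLR213C), the spore wall member of the family, read 3.96 and 3.45 in wt b, 3.99 and 3.81 in the *FLO8* overexpression pair and 2.43 and 2.69 in the *flo8* deletion pair. It fell on the arrays titled *flo8* deleted, by at least 0.68 on the log2 scale (adjusted p = 0.022), from a low level to one under that of an absent transcript. Without wt b replicate 1 the adjusted p was 0.144, with the replicate number as a block it was 0.101, and a filter on dim probe sets removed the gene. In S288c it read 3.10 and 2.90 in S288c wt and 2.36 and 2.32 in S288c with 2μ-*MSS11*, a call (adjusted p = 0.0249) in which the wild-type mean was itself at that level, so no size is given. In Σ1278b it read 2.85 and 2.77 in Σ1278b wt, 2.77 and 2.60 in *mss11* and 2.77 and 2.78 in Σ1278b with 2μ-*MSS11*, all under it.

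*CRH1* (YGR189C) and *UTR2* (YEL040W) encode the crosslinkers of growing cells. *UTR2* read 12.70 and 11.76 in Σ1278b wt, 12.00 and 12.24 in *mss11* and 11.42 and 11.26 in Σ1278b with 2μ-*MSS11*, 13.18 and 12.99 in S288c wt and 11.26 and 13.09 in S288c with 2μ-*MSS11*, and 14.46 and 14.46 in wt b, 14.57 and 14.44 in the *FLO8* overexpression pair and 14.28 and 14.14 in the *flo8* deletion pair. *CRH1* read 12.89 and 13.36 in Σ1278b wt and 13.66 and 13.95 with 2μ-*MSS11*, a difference of 0.68 (SE 0.28, adjusted p = 0.189), while *UTR2* differed there by -0.89 (SE 0.48, adjusted p = 0.334). The replicates of Σ1278b wt were 0.94 apart for *UTR2*. Over all 16 arrays *CRH1* ran from 11.57 to 13.95. In both genes replicate 1 of S288c with 2μ-*MSS11* was below the wild type and replicate 2 beside it.

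*CDA1* (YLR307W), a chitin deacetylase that makes spore chitosan, read 3.36 and 3.77 in S288c wt and 2.98 and 2.49 in S288c with 2μ-*MSS11*, a fall of at least 0.54 on the log2 scale (adjusted p = 0.0127) that ended under the level of an absent transcript. The other arrays gave 2.86 and 3.02 in Σ1278b wt, 2.90 and 2.79 in *mss11* and 3.27 and 3.02 in Σ1278b with 2μ-*MSS11*, and 2.06 and 2.06 in wt b, 2.08 and 2.06 in the *FLO8* overexpression pair and 2.06 and 2.06 in the *flo8* deletion pair. *CDA2* (YLR308W) lay between 1.95 and 2.08 on all arrays. *CTS2* (YDR371W), a chitinase-like protein, read 7.83 and 7.96 in Σ1278b wt, 7.92 and 7.92 in *mss11* and 8.01 and 8.28 in Σ1278b with 2μ-*MSS11*. It read 9.30 and 9.25 in S288c wt and 9.19 and 8.40 in S288c with 2μ-*MSS11*, with the lower value in replicate 2, and 8.71 and 8.50 in wt b, 8.74 and 8.75 in the *FLO8* overexpression pair and 8.72 and 8.72 in the *flo8* deletion pair. *CTS2* was higher in S288c wt than in Σ1278b wt by 1.38 (SE 0.21, adjusted p = 0.000391), and *CDA1* by at least 0.54 (adjusted p = 0.0107), where quantile normalization turned the sign to -0.37. *KRE2* (YDR483W), a Golgi mannosyltransferase, read 12.74 and 12.89 in Σ1278b wt, 12.66 and 12.67 in *mss11* and 12.73 and 12.70 in Σ1278b with 2μ-*MSS11*. It read 12.98 and 12.90 in S288c wt and 12.83 and 13.02 in S288c with 2μ-*MSS11*, and 13.88 and 13.93 in wt b, 13.91 and 13.89 in the *FLO8* overexpression pair and 13.93 and 13.89 in the *flo8* deletion pair, and passed in 0 of the comparisons of an altered strain.

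The responses of both strains to 2μ-*MSS11* were then set against each other by the difference of the differences. It passed for 9 members (26.5%, background 15.9%), 1 higher in S288c (background 10.3%) and 8 lower (background 5.64%). *KNH1* had the largest of the 34, 2.60 (SE 0.40, adjusted p = 0.00495). It rose in S288c and fell in Σ1278b, and this call was kept without any 1 of the 8 arrays. *CHS1* (-1.74 (SE 0.46, adjusted p = 0.035)) and *KRE5* (-1.04 (SE 0.24, adjusted p = 0.0219)) had differences below 0 in S288c and above 0 in Σ1278b, though neither passed in a strain by itself. *SPR1* and *CDA1* were also called, but in Σ1278b their wild-type means lay under the level of an absent transcript, so the size of their differences between responses is not given here. *CHS3* (-0.91 (SE 0.18, adjusted p = 0.013)) was also kept without any 1 array. All 9 were lost with a variance for each condition or with the arrays of both sets alone, where 0 members passed. The count ran from 3 without replicate 2 of Σ1278b with 2μ-*MSS11* to 21 without replicate 1 of S288c with 2μ-*MSS11*.

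**Figure D4:**
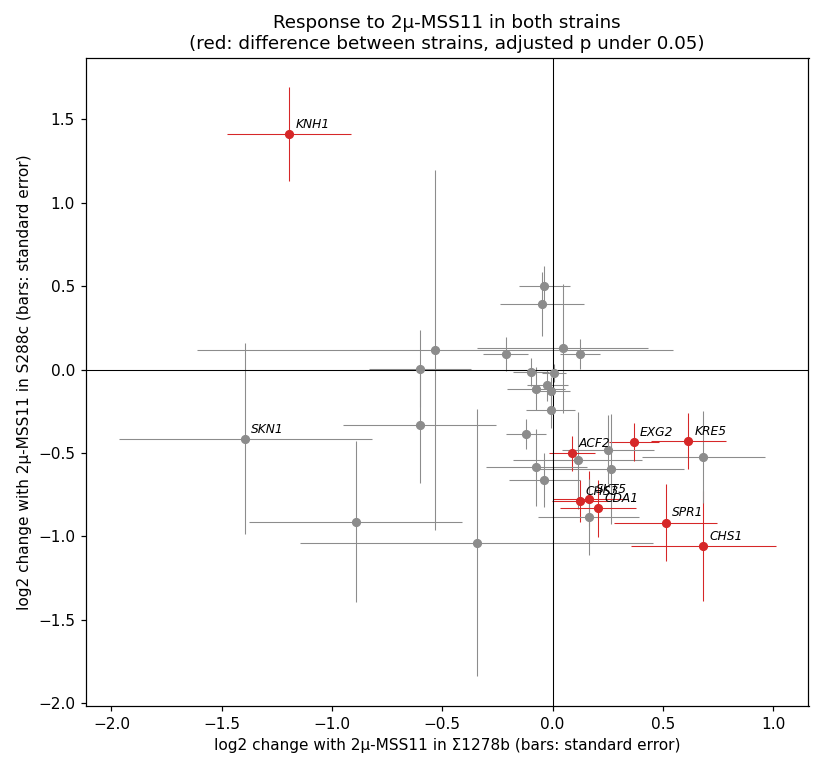
Log2 change with 2μ-*MSS11* against the wild type of the same strain, in Σ1278b (horizontal axis) and S288c (vertical axis), for the 34 members. Bars are standard errors, and red points are members whose difference between strains passed at an adjusted p under 0.05. *KNH1* alone of these lies at the upper left, with the other 8 at the lower right, of which *SPR1* and *CDA1* had Σ1278b wt means under the level of an absent transcript.

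The S288c replicates with 2μ-*MSS11* differed by over 1 for 9 of the 34 members (26.5%) and for 29.3% of all probe sets. In the other 7 conditions 0 members did. Of the 9, 6 were lower in replicate 1. *GAS3*, a member of the Gas family, read 7.49 and 12.10, and *CHS2* read 7.20 and 10.67. Over all 16 arrays *GAS3* ran from 7.49 to 12.96 and *CHS2* from 7.20 to 12.60, with the lowest value of each in that replicate 1. *UTR2* read 11.26 and 13.09, *GAS1* 12.83 and 14.49, *SCW10* 12.04 and 13.43 and *CRH1* 11.57 and 12.60. *CHS1*, *CHS6* and *SKN1* were higher in replicate 1. The cyclin genes moved with the larger group, *CLN2* at 6.58 and 10.16 and *CLB2* at 4.42 and 9.65, against 9.02 and 9.0, and 8.74 and 8.92, in wt. *CHS2* is known as a gene of the G2/M wave, and the part of the cell cycle in these values was not tested.

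**Figure D5:**
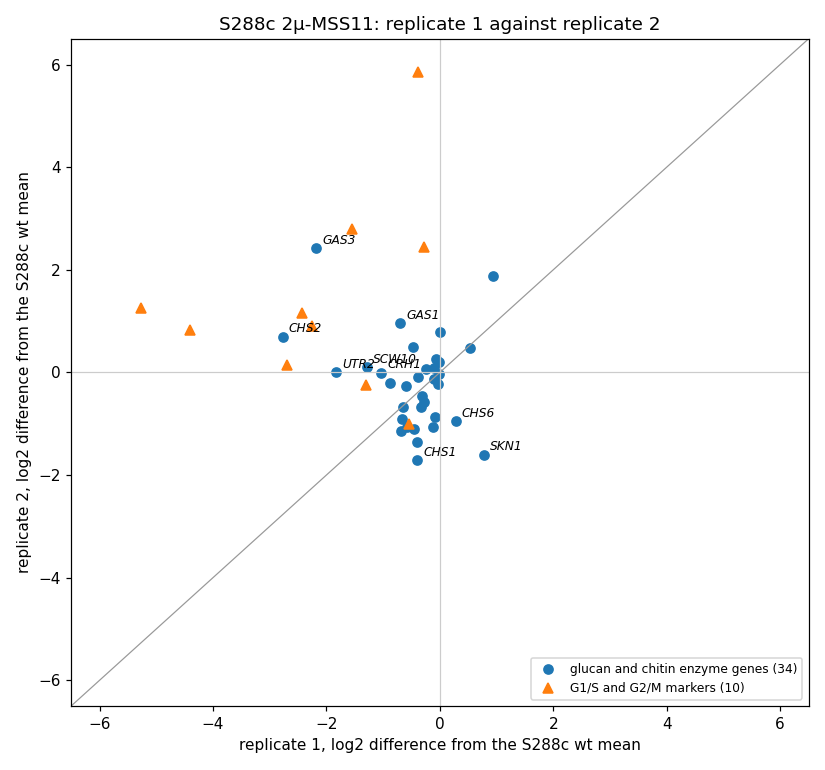
Difference from the S288c wt mean on the log2 scale in replicate 1 (horizontal axis) and replicate 2 (vertical axis) of S288c with 2μ-*MSS11*. Circles are the 34 members, named where the replicates differ by over 1, and triangles are 10 G1/S and G2/M markers. Points on the diagonal line have equal values in both replicates. *GAS3* and *CHS2* lie among the markers, at the upper left.

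Wild types of the same strain and plasmid gave the scale of difference between sets. In wt b 26 of 34 members (76.5%, background 82.9%) differed from wt, with 23 higher, against 80% of all probe sets, and 3 lower, against 2.89%, all 3 with both means under the level of an absent transcript (*GAS4*, *SPR1*, *CDA1*), and a median of 0.98 against 1.21 for all. After median centring 13 passed, 2 higher and 11 lower. After quantile normalization 6 passed, and the difference of *KNH1*, 0.96 before, became -0.33, as against -0.36 after centring. Levels are for this reason not compared between these sets, and *UTR2*, the member furthest up in wt b at 2.23 (SE 0.48, adjusted p = 0.00173), did not pass after centring (difference 0.91, adjusted p = 0.204).

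Genes around the members were followed as well. Of 7 further glucan and chitin enzymes, 5 fell with 2μ-*MSS11* in S288c, where 9.6% of all probe sets were called lower, and the list median was -0.73 against -0.01 for all. They were *FKS3*, a homologue of *FKS1* (-1.50, SE 0.39, adjusted p = 0.0309), and the daughter cell separation genes *DSE2* (-1.07, SE 0.30, adjusted p = 0.0392), *SCW11* (-0.96, SE 0.21, adjusted p = 0.0150) and *DSE4* (-0.73, SE 0.11, adjusted p = 0.00262), with the chitinase gene *CTS1* as the fifth. *FKS3* was dim, at 5.01 and 5.19 in S288c wt and 4.43 and 2.77 with 2μ-*MSS11*. The last value lay under the level of an absent transcript, so the size of its fall is uncertain. *DSE2* also fell in Σ1278b with 2μ-*MSS11* (-1.23, SE 0.30, adjusted p = 0.0477), and *DSE4* rose on the arrays titled *flo8* deleted (0.65, SE 0.11, adjusted p = 0.0440). In S288c wt 6 of the 7 were higher than in Σ1278b wt, where 31.8% of all probe sets were, led by *DSE2* (3.98), *SCW11* (3.80), *CTS1* (3.02) and *DSE4* (2.05). Of 4 markers of the M/G1 phase, when these separation genes are known to be expressed, 2 also fell with 2μ-*MSS11* in S288c (background 9.6% lower). The summed level of the 4 was 12.38 and 13.73 against 13.80 and 13.81. The part of that difference was not tested.

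In the cell wall integrity pathway, the kinase cascade that answers wall damage, 0 of 19 genes passed in S288c with 2μ-*MSS11*, where 5 had an unadjusted p under 0.05. In Σ1278b, where 4.17% of all probe sets were called lower, 2 fell. These were *SAC7*, which encodes a GTPase-activating protein of Rho1 (-1.02, SE 0.18, adjusted p = 0.0157), and the sensor gene *SLG1*, also called *WSC1* (-0.65, SE 0.14, adjusted p = 0.0281). Of 8 genes for sugar nucleotide precursors 0 passed in either strain. Of 14 helpers of chitin synthase transport and glucan assembly, 2 fell in S288c, where 9.6% of all probe sets were called lower. The 2 were *ROT2*, for glucosidase II (-0.69, SE 0.11, adjusted p = 0.00456), and *BCH2*, of the exomer (-0.48, SE 0.10, adjusted p = 0.0161). Deletion of *MSS11* and the *FLO8* overexpression arrays gave 0 calls in all 4 lists. Between the wild types the integrity list had 8 of 19 higher and 5 lower in S288c, near the 31.8% and 28.1% of all probe sets. These included the transcription factor gene *SWI4* (-2.79, SE 0.23, adjusted p = 1.01e-05) and the sensor gene *MTL1* (2.17, SE 0.47, adjusted p = 0.00305). The helpers had 7 of 14 higher and 2 lower, and the precursor genes 0 of 8 higher and 3 lower.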

How the data were processed

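RNA of 16 yeast cultures was hybridized to Affymetrix Yeast Genome 2.0 arrays and scanned with GCOS version 1.4. The deposited table holds intensity values on a linear scale, which the authors background corrected and normalized. The methods name RMA and the submitters' processing notes GCRMA, so the background model is unsettled. Growth phase is likewise unsettled, since the labels give entry into stationary phase and the paper mid-exponential growth with more replicates than the pair per condition analysed here. The lowest intensity differs between 3 groups of arrays, here called sets, which no label names. Such models estimate background from the probes of an array, so values near the floor have little resolution.

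Intensities were floored at 1 and put on the log2 scale. Tests used limma 3.58.1 in R 4.3.3 with 1 mean per condition over all 16 arrays and 8 residual degrees of freedom, then eBayes and Benjamini-Hochberg adjustment over 5498 probe sets tied to 1 gene each, with a threshold of 0.05. Members called in any comparison are given on every array, with *SKN1* beside them as the pair of *KRE6*, and the other 4 by range. Other lists name at most 4 called genes a comparison. The members and lists were chosen with earlier results of these data known. Alternatives were quantile normalization, median centring, an intensity trend, a filter on dim probe sets (log2 of 5 on 2 arrays), a variance for each condition, only the arrays of the sets compared, a replicate block, wt b as control, and leaving out each array. Arrays give no read depth, and their number limits the precision. Sequences, promoter motifs and coordinates were not analysed here.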

Additional observations from a re-analysis of the deposited data

Results flagged for a closer look

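The response to 2μ-*MSS11* differed between S288c and Σ1278b, by the test of the difference itself, for 9 members. The log2 differences (response in S288c minus response in Σ1278b) were 2.60 for *KNH1* (adjusted p = 0.00495), -1.74 for *CHS1* (0.0350), -1.43 for *SPR1* (0.0219), -1.04 for *KRE5* (0.0219), -1.04 for *CDA1* (0.0227), -0.94 for *SKT5* (0.0272), -0.91 for *CHS3* (0.0130), -0.80 for *EXG2* (0.0140) and -0.59 for *ACF2* (0.0270), all from limma over all probe sets. All 9 rest on the S288c pair whose replicates differ most, and 0 of them passed with a variance for each condition. The *SPR1* and *CDA1* values have no exact size, since their Σ1278b wt means lay under the level of an absent transcript. The strains lie in separate sets of arrays, so strain and set cannot be told apart.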

How the results depend on the processing

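Counts below are members passing out of 34. In S288c with 2μ-*MSS11* the count of 11 became 0 with a variance for each condition and 0 with the S288c arrays alone, and ran from 2 to 24 with 1 array left out. In Σ1278b with 2μ-*MSS11* the count of 1 became 0 after median centring, 4 with a variance for each condition, 3 with the first set's arrays alone and 19 with wt b as the control, and ran from 0 to 1 with 1 array left out. The 1 call after quantile normalization was a rise of another gene. For *mss11* the count of 0 became 14 with wt b as the control. Both fits with wt b as the control used median centred arrays and crossed sets. After that centring wt b itself differed from wt for 13 members, so set and genotype cannot be told apart in them. For *FLO8* overexpression the count of 0 became 1 with a variance for each condition. For the *flo8* deletion arrays the count of 1 became 0 with the dim filter, 3 with a variance for each condition and 0 with the replicate block, and ran from 0 to 1 with 1 array left out. With the third set's arrays alone it was 1, with 0 shared. For wt b against wt the count of 26 became 6 after quantile normalization and 13 after median centring. For the difference between the strains' responses the count of 9 became 0 with a variance for each condition and 0 with both sets' arrays alone, and ran from 3 to 21 with 1 array left out. Between wild types 20 became 15 to 25 over all alternatives. The signs of *KNH1* in wt b against wt (-0.33 after quantile normalization, -0.36 after median centring) and of *CDA1* between wild types (-0.37 after quantile normalization) were turned. Apart from fits that hold fewer arrays or probe sets, the cause was not tested.

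Over all probe sets, the counts moved by over 1.5 times in these fits. For S288c with 2μ-*MSS11* 927 became 22 with a variance for each condition and 0 with own arrays. For Σ1278b with 2μ-*MSS11* 287 became 480 with a variance for each condition, 134 with the replicate block and 2566 with wt b as control. For *mss11* 7 became 1427 with wt b as control, and both fits with that control crossed sets. For *FLO8* 3 became 253 with a variance for each condition and 0 by quantile normalization, own arrays or the block. For *flo8* 22 became 10, 870, 148 and 12 by quantile normalization, a variance for each condition, own arrays and the block. For wt b 4560 became 830 and 1458 by quantile normalization and median centring, and the share that was higher changed with them (4401, then 457 and 363). For the difference of responses 875 became 7 and 55.

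Same-numbered replicates correlated at -0.41 to 0.09 over the pairs of conditions in the first 2 sets and at 0.15 to 0.26 in the third, with 2 replicates a condition and no source that says what the numbers mark, so whether they pair the third set was not settled. The replicate block there ended the *CRR1* call (adjusted p = 0.101). The replicate block left 10 of 11 calls in S288c with 2μ-*MSS11* and 7 of 9 for the difference of responses. The filter on dim probe sets removed *GAS4*, *CRR1*, *CDA1* and *CDA2*, which have no value under it. Signal near background limits what *SPR1*, *CRR1*, *CDA1*, *GAS4* and *CDA2* can show, and pairs of arrays limit every test here.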
